A study of Rattus norvegicus with 36 samples.

Results

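The nucleolar ribosome biogenesis factors described here are genes chosen by symbol from a table of expected counts for 23487 rat genes. Of 36 symbols in the rule, 35 had a row and all 35 passed the filter on low counts, which left 14606 genes for testing; Heatr1, a processome factor, had no row under that symbol. The cells were alveolar macrophages taken from male F344 rats, maintained over 5 days in serum-containing DMEM, with an exposure lasting 4 days. The particles were Printex90, a carbon black, and G1-1, G3-1 and Bayertitan, all titanium dioxide, each with a control group of its own beside the non-overload and overload groups; with 3 libraries a group there were 12 groups and 36 libraries. The labels call the 3 libraries of a group biological replicates, without saying whether these are separate animals or cultures, and p-values refer to the spread among them. The amounts of particle are not given. The libraries were made from total RNA depleted of ribosomal RNA, so the messages of the factors were measured and the ribosomal RNA was not.

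Ribosomes are built in the nucleolus, where RNA polymerase I transcribes the precursor of the ribosomal RNAs. Small nucleolar ribonucleoproteins (snoRNPs) guide its chemical modification: box C/D particles methylate riboses and box H/ACA particles convert uridine to pseudouridine. The small subunit processome then folds and cleaves the precursor, and a separate group of helicases, GTPases and scaffold proteins assembles the large, or 60S, subunit. The genes for many of these factors are known targets of the transcription factor Myc, which binds the E-box CACGTG, and they are read as a sign of cell growth. By role, the 35 genes comprised 3 core box C/D proteins, 1 box H/ACA protein, 1 snoRNP chaperone, 4 abundant or multifunctional nucleolar proteins, 9 processome and pre-40S factors, 15 factors of 60S assembly and 2 subunits of RNA polymerase I.

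Promoter sequences of the factors are shown because most of these genes were lower together in G1-1 overload and because the E-box is the motif best known for this gene class. RefSeq's table for the GRCr8 assembly held the promoter (250 bases before to 50 bases after the annotated start) of 32 of the 36 symbols; Bop1, Rrs1, Gnl2 and Wdr43 had no entry. The 200 bases just before the start follow, 5′ to 3′ on the gene's own strand, with each CACGTG in capitals; the motif reads the same on both strands, and no other motif was searched. Nolc1, at chr1:254870159-254870358 (plus strand), and Ncl, at chr9:94456084-94456283 (minus strand), were the factors with the lowest log2 fold changes in G1-1 overload and held no E-box. Ddx18, at chr13:35295973-35296172 (minus strand), Gnl3, at chr16:6219783-6219982 (minus strand), Pes1, at chr14:83074146-83074345 (plus strand), and Dkc1, at chrX:157751451-157751650 (plus strand), each held 1.
Nolc1: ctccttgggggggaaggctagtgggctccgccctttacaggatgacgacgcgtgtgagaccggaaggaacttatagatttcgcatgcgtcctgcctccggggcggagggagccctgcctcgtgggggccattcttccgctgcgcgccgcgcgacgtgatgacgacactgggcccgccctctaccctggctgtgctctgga
Ncl: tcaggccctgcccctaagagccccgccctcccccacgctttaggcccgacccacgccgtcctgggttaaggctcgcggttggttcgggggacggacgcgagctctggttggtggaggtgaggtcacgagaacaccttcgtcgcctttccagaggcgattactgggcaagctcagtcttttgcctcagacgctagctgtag
Ddx18: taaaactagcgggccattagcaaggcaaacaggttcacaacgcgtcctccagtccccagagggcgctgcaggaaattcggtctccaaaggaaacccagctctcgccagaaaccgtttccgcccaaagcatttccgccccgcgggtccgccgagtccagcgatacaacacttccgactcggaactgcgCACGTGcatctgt
Gnl3: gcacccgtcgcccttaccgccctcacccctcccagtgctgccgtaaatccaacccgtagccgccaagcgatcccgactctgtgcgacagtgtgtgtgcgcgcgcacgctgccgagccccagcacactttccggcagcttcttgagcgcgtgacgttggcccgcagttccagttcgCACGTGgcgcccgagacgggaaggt
Pes1: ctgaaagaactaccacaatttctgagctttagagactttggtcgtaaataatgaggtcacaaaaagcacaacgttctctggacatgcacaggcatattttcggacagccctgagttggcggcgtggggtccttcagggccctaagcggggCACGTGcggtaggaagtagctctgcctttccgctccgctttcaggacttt
Dkc1: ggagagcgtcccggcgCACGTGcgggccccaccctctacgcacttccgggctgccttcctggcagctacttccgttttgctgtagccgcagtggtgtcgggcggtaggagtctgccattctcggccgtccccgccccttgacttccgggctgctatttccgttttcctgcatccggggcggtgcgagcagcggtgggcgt
Of the 32 promoter windows of 300 bases, 12 (37.5%) held CACGTG, in 7 of them before the start. The share was 9.0% of the 10444 promoters of tested genes and 6.7% of all 27457 promoters in the table. By role the motif was found in 6 of 12 promoters of 60S assembly factors, 3 of 9 of processome factors, 1 of 3 of box C/D genes and neither of the polymerase I subunits.

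Total counts per library ran from 26096890 to 43205319. Macrophage messages were abundant in all 36 libraries (Cd68 603 to 974 CPM, a counts-per-million value with library totals scaled by the trimmed mean of M-values; Lyz2, lysozyme, 11242 to 17675 CPM), but Marco, a scavenger receptor of alveolar macrophages, was at 0.030 to 1.09 CPM and Cd163 at 0 to 0.26 CPM. Of 14 epithelial markers 12 were tested, with keratin Krt7 at 485 to 1062 CPM, while the surfactant gene Sftpc was at 0 in 34 libraries. Their mean log2 CPM was 4.60 to 4.99 in G1-1 control and 4.08 to 4.54 in G1-1 overload, and 4.01 to 4.83 in Printex90 control and 3.79 to 3.84 in Printex90 overload. Col3a1, a fibroblast collagen gene, passed 10 CPM in 8 libraries, 1 of them in G1-1 overload and 1 in Printex90 control. In bulk RNA, fewer cells of a type and less RNA per cell cannot be told apart.

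Most of the nucleolar factors were lower in G1-1 overload than in its controls. Of the 35, 29 fell and none rose by edgeR (quasi-likelihood test, Benjamini-Hochberg adjusted p under 0.05); of all 14606 genes, 28.1% were called in either direction and 14.4% were lower. The median log2 fold change of the factors was -0.40, against -0.02 for all genes. Summed over the 35 genes, the level was 2201 to 2347 CPM in G1-1 control, 2039 to 2236 CPM in non-overload and 1550 to 1730 CPM in overload libraries. In 30 factors every overload library lay below every control library, a pattern that held for 19.9% of all genes. In 19 factors the 3 lowest of the 36 libraries were those of G1-1 overload (7.31% of all genes).

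**Figure D1:**
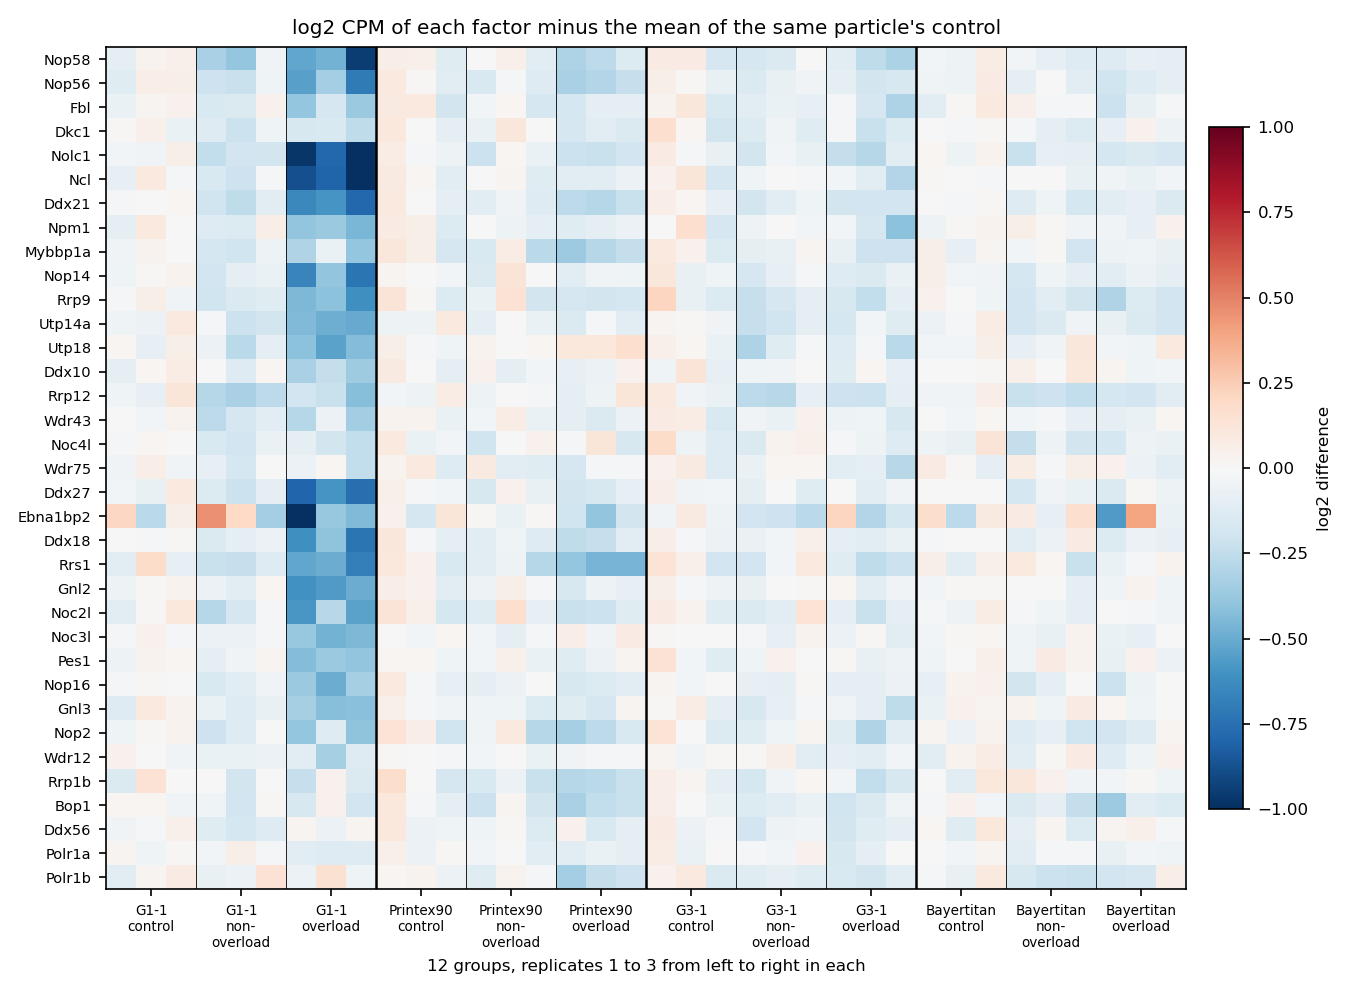
Level of each of the 35 factors (rows, grouped by role) in each of the 36 libraries (columns, by group), as log2 CPM minus the mean of the same particle's control libraries; blue is below and red above that mean, and the colour scale ends at -1 and 1. The 3 columns of G1-1 overload form the darkest blue block; the summed level there was 1550 to 1730 CPM.

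With the mean epithelial marker level as a covariate, 24 of the 29 factors remained lower in G1-1 overload, and Dkc1, Fbl, Mybbp1a, Nop2 and Wdr43 did not pass. Over all genes, 4391 were called with this covariate and 4105 without it. The epithelial level of the 3 G1-1 overload libraries lay below that of all 3 controls, so here too the covariate and the exposure cannot be told apart fully. Without the libraries high in Col3a1, 28 factors were lower, and 4560 of all genes were called. Of 16 markers of dividing cells, 1 was lower and 1 higher in G1-1 overload; their mean log2 CPM was 5.16 to 5.35 in control and 5.04 to 5.42 in overload libraries. Of 13 macrophage markers 4 were lower and 3 higher, with a mean log2 CPM of 8.14 to 8.29 in control and 8.03 to 8.31 in overload. Of 6 neutrophil markers tested 2 were higher, in G1-1 and in Printex90 overload alike. Their list summed to 176 to 193 CPM in G1-1 control and 313 to 392 CPM in overload, and to 190.1 to 210.1 CPM in Printex90 control and 336 to 354 CPM in overload, groups that did not overlap. Most of the sum was Cxcr1 (139 to 349 CPM). Of the rest, Mmp8 was at 10.3 to 49.4, Csf3r at 4.85 to 8.16 and S100a8 at 1.33 to 4.46 CPM. Cxcr2 was at 0.53 to 1.44 and S100a9 at 0.029 to 0.52 CPM. Mpo and Elane were at 0 in 33 and 24 of the 36 libraries and never above 0.09 CPM. The part of these markers in the fall of the factors was not tested.

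Among the snoRNP genes, all 3 box C/D core proteins fell in G1-1 overload, with a median log2 fold change of -0.53. Nop56, a scaffold of the box C/D particle, read 61.97, 70.7 and 70.2 CPM in the control libraries and 46.2, 53.2 and 41.4 CPM in the overload libraries. The log2 fold change was -0.53 (SE 0.070, adjusted p = 1.27e-06 by edgeR), and the groups did not overlap. Its partner scaffold Nop58 read 57.2, 62.4 and 62.97 CPM in control and 42.5, 43.8 and 31.5 CPM in overload, again without overlap (-0.63, SE 0.096, adjusted p = 8.33e-06 by edgeR). Overload replicate 3 was the lowest library for both scaffolds. Fbl, the fibrillarin methyltransferase of the particle, went from 35.7, 38.02 and 38.5 to 28.6, 33.3 and 28.95 CPM (-0.31, SE 0.083, adjusted p = 0.00612 by edgeR), a smaller value than those of both scaffolds. With the epithelial covariate Fbl was at -0.09 and no longer called.

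The box H/ACA side was represented by Dkc1, the pseudouridine synthase dyskerin. It read 48.3, 49.5 and 45.8 CPM in G1-1 control and 42.9, 43.1 and 40.1 CPM in overload, a log2 fold change of -0.19 (95% interval -0.33 to -0.05, edgeR adjusted p = 0.0387). The groups were separate but close, and the call was lost without control replicate 1 (-0.17) or 2 (-0.17) and without overload replicate 1 (-0.20) or 3 (-0.15). With the epithelial covariate its value was -0.04. The interval of Nop56, -0.67 to -0.38, lay below that of Dkc1; the difference between the genes was not tested. Nolc1, the phosphoprotein that escorts both classes of snoRNP, had the lowest log2 fold change of the 35. Its levels were 104, 104 and 111 CPM in control, 89.6, 93.3 and 93.6 CPM in non-overload and 54.1, 61.8 and 49.5 CPM in overload libraries of G1-1. All 3 overload libraries lay far below the rest, and the log2 fold change was -0.95 (SE 0.065, adjusted p = 5.58e-12 by edgeR).

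The 4 abundant or multifunctional nucleolar proteins all fell in G1-1 overload, with a median of -0.54 on the log2 scale. Ncl, nucleolin, an RNA-binding protein of the nucleolus, read 369, 417 and 386 CPM in control and 212, 224 and 193 CPM in overload (-0.90, SE 0.071, adjusted p = 8.62e-11 by edgeR). Ddx21, a helicase that couples polymerase I transcription with rRNA processing, read 146, 147 and 149.7 CPM in control and 94.4, 97.9 and 85.9 CPM in overload (-0.67, SE 0.051, adjusted p = 4.12e-11 by edgeR). For both genes the overload libraries stood well apart from every control library. Npm1, the chaperone nucleophosmin, had a log2 fold change of -0.41. Mybbp1a, a Myb-binding protein of the nucleolus, had -0.25, with overload replicate 2 close to the controls, and lost its call without control replicate 2 (-0.24) or without overload replicate 1 (-0.22) or 3 (-0.17).

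**Figure D2:**
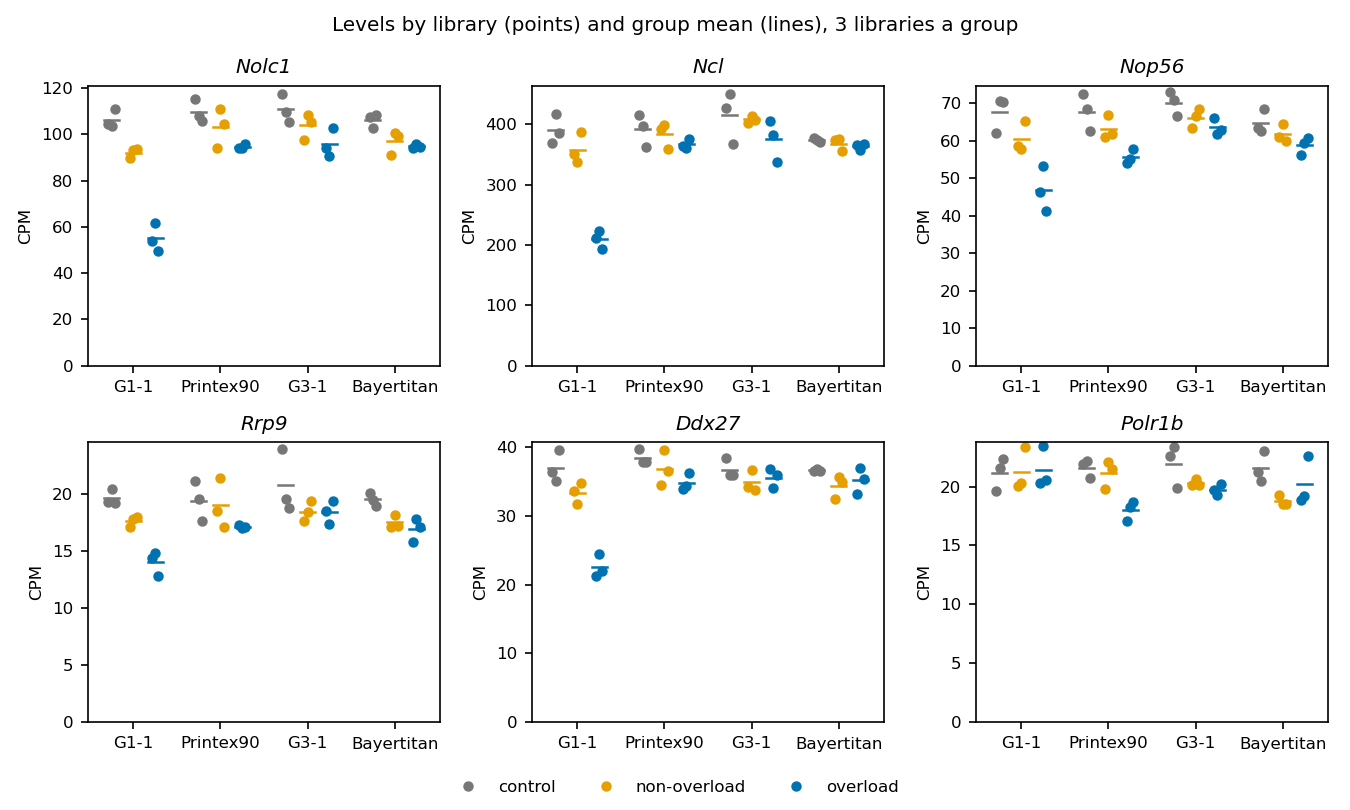
Level in CPM (vertical axes, from 0) of Nolc1, Ncl, Nop56, Rrp9, Ddx27 and Polr1b in the 36 libraries, with 1 point a library, a line at the mean of each group of 3, and colours for control, non-overload and overload. The G1-1 overload points lie below all other points for the first 5 genes, as for Nolc1 at 54.1, 61.8 and 49.5 CPM, while for Polr1b 2 of them lie among their controls and 1 above, and the Printex90 overload points lie below theirs.

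Of the 9 processome and pre-40S factors, 7 fell in G1-1 overload, with a median of -0.31. Nop14, a processome core protein, read 43.4, 45.2 and 46.01 CPM in control and 28.4, 34.2 and 27.01 CPM in overload (-0.59, SE 0.068, edgeR adjusted p = 1.43e-07). Utp14a, whose yeast counterpart activates the helicase that releases the U3 snoRNA, read 24.9, 24.5 and 27.4 CPM and 18.8, 18.2 and 18.03 CPM (-0.48, SE 0.061, edgeR adjusted p = 5.27e-07). Rrp9, a protein of the U3 snoRNP itself, read 19.3, 20.4 and 19.1 CPM and 14.4, 14.8 and 12.8 CPM (-0.49, SE 0.082, edgeR adjusted p = 3.55e-05). None of these 3 genes had overlapping groups. Utp18 fell by 0.46, the helicase Ddx10 by 0.31, the export factor Rrp12 by 0.28 and Wdr43 by 0.23 on the log2 scale; Wdr43 lost its call without overload replicate 3 (-0.16). Noc4l, which in yeast pairs with Nop14, had -0.18 (edgeR adjusted p = 0.12) and the early-acting Wdr75 had -0.09 (edgeR adjusted p = 0.416), and neither passed.

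The factors of 60S assembly gave 12 decreases among 15 genes in G1-1 overload, with a median of -0.40. Ddx27, a helicase that associates with the PeBoW complex, read 36.4, 35.1 and 39.6 CPM in control and 21.3, 24.5 and 21.9 CPM in overload (-0.71, SE 0.059, edgeR adjusted p = 2.71e-10). Ddx18, another helicase, read 33.2, 33.1 and 33.6 CPM and 21.8, 25.2 and 20.04 CPM (-0.58, SE 0.063, edgeR adjusted p = 4.82e-08). Gnl2, a GTPase of 60S maturation, read 46.1, 48.2 and 48.9 CPM and 31.4, 32.2 and 33.9 CPM (-0.56, SE 0.049, edgeR adjusted p = 9.77e-10). In each of these the highest overload library lay below the lowest control library. Rrs1, which in yeast brings the 5S particle to the assembling subunit, read 16.7, 20.5 and 17.01 CPM and 12.5, 12.8 and 11.2 CPM, also without overlap (-0.57, SE 0.096, edgeR adjusted p = 3.38e-05). Noc2l and Noc3l, whose yeast counterparts form a dimer, had -0.46 and -0.43, and both were called. The GTPase nucleostemin, Gnl3, had -0.39, Nop16 -0.40 and the rRNA methyltransferase Nop2 -0.30, all called. Nop2 lost its call without overload replicate 1 (-0.26) or 3 (-0.24).

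Members of a single 60S complex did not all pass together. Pes1, Bop1 and Wdr12 form the PeBoW complex, which processes the precursor of the large subunit RNA. Pes1 read 55.4, 58.9 and 58.3 CPM in G1-1 control and 42.5, 44.5 and 43.7 CPM in overload, without overlap (-0.40, edgeR adjusted p = 1.20e-06). Bop1 read 31.04, 31.1 and 29.9 CPM and 27.4, 31.7 and 26.9 CPM, groups that overlapped (-0.10, 95% interval -0.25 to 0.05, edgeR adjusted p = 0.351). Wdr12 had -0.19 and was called, but was at -0.11 without overload replicate 2 and at -0.16 without control replicate 1, and not called in either case. Of the other 60S factors not called, Rrp1b had -0.11 and the helicase Ddx56 -0.00053 (95% interval -0.13 to 0.13). Ebna1bp2 had -0.61, with a wide spread: its control libraries were at 28.2, 20.3 and 25.4 CPM and its overload libraries at 11.7, 18.7 and 17.97 CPM, and the call was lost without control replicate 1 (-0.49) or overload replicate 1 (-0.42).

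The 2 RNA polymerase I subunits among the factors had small log2 fold changes in G1-1 overload, and 1 of 2 was called. Other genes of the polymerase I machinery, some of them called lower, are given further on. Polr1a, the largest catalytic subunit, read 76.3, 72.9 and 75.8 CPM in control and 69.3, 68.6 and 68.7 CPM in overload (-0.12, SE 0.041, edgeR adjusted p = 0.0262). The groups did not overlap, but the call was lost without control replicate 1 (-0.10) or 3 (-0.12) and without overload replicate 2 (-0.11) or 3 (-0.11). Polr1b, its partner in the active site, read 19.6, 21.6 and 22.3 CPM and 20.3, 23.5 and 20.6 CPM. Overload replicate 2 was the highest of all 36 libraries and the other 2 lay among the controls, with a log2 fold change of 0.02 (95% interval -0.14 to 0.17, edgeR adjusted p = 0.897).

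**Figure D3:**
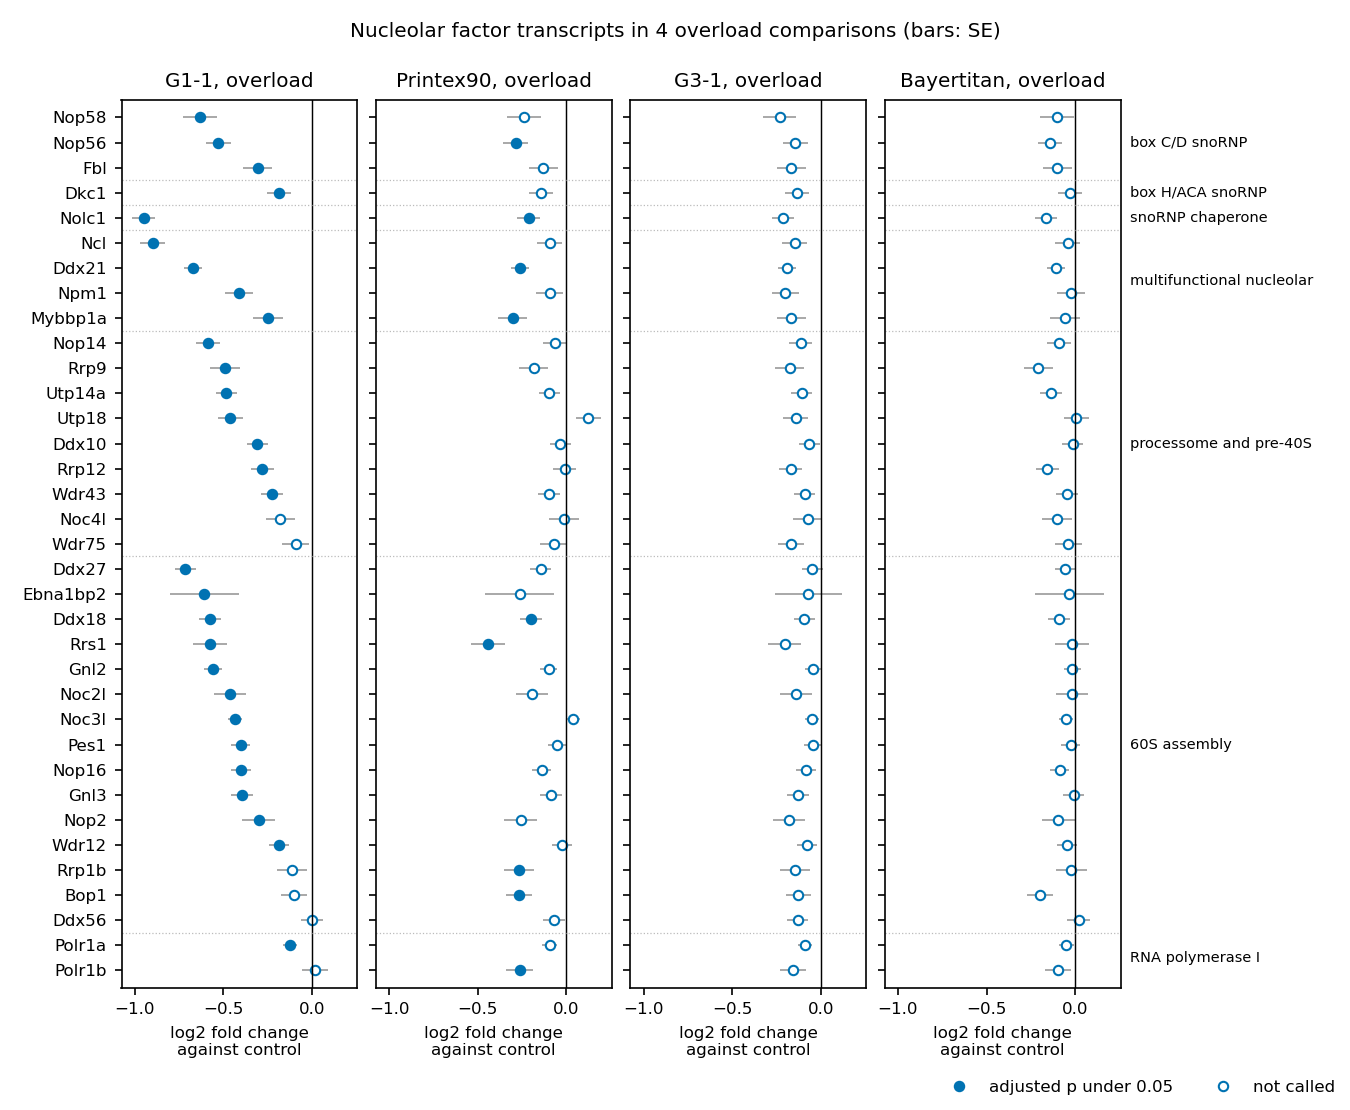
Log2 fold change of overload against control (horizontal axes) for the 35 factors in each of the 4 particles, with bars of 1 SE; filled points passed an adjusted p of 0.05 by edgeR. In G1-1, 29 points are filled and all but 1 of the 35 lie left of 0, from -0.95 for Nolc1 to 0.02 for Polr1b, and in G3-1 and Bayertitan no point is filled.

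Fewer factors were called in Printex90 overload. Of the 35, 9 were lower and none higher (edgeR, adjusted p under 0.05), where 14.8% of all genes were called in either direction and 7.31% were lower. The median log2 fold change of the factors was -0.13, and 0.0064 with the epithelial covariate. The summed level was 2144 to 2411 CPM in control and 2041 to 2139 CPM in overload libraries. The overload libraries of 18 factors lay below all controls, as they did in 14.9% of all genes, and those of Utp18 lay above all controls (17.2% of all genes).

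Rrs1 had the lowest log2 fold change in Printex90 overload. It read 19.3, 18.4 and 16.1 CPM in control and 13.7, 12.9 and 12.97 CPM in overload, without overlap (-0.44, SE 0.096, edgeR adjusted p = 0.00239). Nop56 read 72.4, 68.4 and 62.6 CPM and 54.02, 55.2 and 57.8 CPM (-0.28, SE 0.070, edgeR adjusted p = 0.00642). Ddx21 read 159, 148 and 139 CPM and 124, 122 and 127 CPM (-0.26, SE 0.050, edgeR adjusted p = 0.000776). For all 3 genes every overload library lay below every control library, and control replicate 3 was the lowest control. Polr1b, which did not pass in G1-1, read 21.9, 22.2 and 20.7 CPM and 17.1, 18.3 and 18.7 CPM (-0.26, SE 0.075, edgeR adjusted p = 0.0169), without overlap. The other 5 genes called were Mybbp1a (-0.30), Bop1 (-0.27), Rrp1b (-0.26), Nolc1 (-0.21) and Ddx18 (-0.20). None of the 9 processome factors passed: Nop14 was at -0.06, Rrp9 at -0.18 and Utp18 at 0.13. Ncl, with -0.90 in G1-1, was at -0.09 (95% interval -0.24 to 0.05).

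Most of the Printex90 calls were lost when 1 library or another was left out, in some cases without a smaller fold change. Of the 9, only Rrs1 and Ddx21 kept their calls whichever of the 6 libraries was left out. Between 2 factors (without control replicate 1) and 15 (without control replicate 3) were called. Calls over all genes moved too, to 1081 and 2861 in these fits, from 2155 with all libraries. Without control replicate 1, Nop56 was at -0.23, Nolc1 at -0.17, Mybbp1a at -0.24, Bop1 at -0.21, Rrp1b at -0.17, Ddx18 at -0.13 and Polr1b at -0.24, and none of these was called. Calls were also lost without control replicate 2 (Nolc1 at -0.21, Mybbp1a -0.26, Rrp1b -0.26, Ddx18 -0.20 and Polr1b -0.23) and without overload replicate 1 (Nolc1 at -0.20, Mybbp1a -0.26, Bop1 -0.24, Rrp1b -0.25, Ddx18 -0.17 and Polr1b -0.22). Without overload replicate 2, Nolc1 (-0.20), Rrp1b (-0.26) and Ddx18 (-0.18) were not called. Without overload replicate 3, Nolc1 (-0.22) and Rrp1b (-0.28) were not called, against -0.21 and -0.26 with all libraries. With the epithelial marker level as a covariate, 0 factors passed in Printex90 overload, while 1410 of all genes did (2155 without the covariate). Rrs1, Ddx21 and Nop56 had edgeR log2 fold changes of -0.17, -0.12 and -0.06 with it. The epithelial level of the 3 Printex90 overload libraries lay below that of all 3 controls, so the covariate and the exposure cannot be told apart by this fit.

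No factor passed in overload of the other titanium dioxide particles, G3-1 and Bayertitan. In G3-1 overload 0 factors were called, as were 0.568% of all genes; 14 factors had an unadjusted p under 0.05, all lower (12.4% of all genes did), and DESeq2 called 1, Ddx21. All 35 log2 fold changes were below 0, with a median of -0.14, against -0.008 for all genes. The median of the factors was -0.04 without the libraries high in Col3a1, of which G3-1 control and overload held 2 each, and -0.06 with the epithelial covariate. Within groups, the correlation of a factor with the mean of the others ran from -0.13 (Wdr12) to 0.90 (Nop56). The 35 signs are therefore not independent results. Nolc1 read 118, 109.7 and 106 CPM in G3-1 control and 93.99, 90.8 and 103 CPM in overload (-0.21, edgeR adjusted p = 0.142). Ddx21 read 157, 152 and 142 CPM and 132, 131 and 132 CPM (-0.19, edgeR adjusted p = 0.0774). For both genes every overload library lay below every control, which was so for 7 factors and 5.45% of all genes. Ncl read 427, 451 and 368 CPM and 406, 383 and 337 CPM, groups that overlapped.

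In Bayertitan overload 0 factors were called, as were 0.329% of all genes, and 6 had an unadjusted p under 0.05 (7.63% of all genes did); DESeq2 called 0. The median log2 fold change was -0.05. Nolc1 read 107, 103 and 109 CPM in Bayertitan control and 94.01, 95.98 and 94.5 CPM in overload (-0.16, edgeR adjusted p = 0.441). Rrp9 read 20.1, 19.5 and 18.96 CPM and 15.8, 17.7 and 17.1 CPM (-0.21, edgeR adjusted p = 0.45). In 12 factors, these 2 among them, the overload libraries lay below all controls, against 7.76% of all genes. Ncl read 377, 374 and 371 CPM and 365, 358 and 368 CPM, also without overlap and with a log2 fold change of -0.04.

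The overload responses of G1-1 and the other particles were then compared directly, as a difference of log2 fold changes. Against Printex90, 14 factors were lower in G1-1 and none higher (11.1% of all genes were called either way and 6.71% were lower). The smallest p-values were those of Noc3l, with a difference of -0.47 (SE 0.058), Ncl with -0.81 (SE 0.099) and Nolc1 with -0.74 (SE 0.091). Noc3l read 41.3, 43.1 and 41.3 CPM in G1-1 control and 32.2, 30.3 and 30.7 CPM in G1-1 overload, and 43.8, 42.96 and 44.3 CPM in Printex90 control and 45.7, 42.6 and 46.3 CPM in Printex90 overload. It was therefore low in the G1-1 overload libraries alone among these groups. The 14 comprised 7 of the 15 factors of 60S assembly, 4 of the 9 processome factors, 2 of the 4 multifunctional proteins and Nolc1. None of the box C/D genes and neither polymerase I subunit differed at the threshold: Nop56 had -0.24 (95% interval -0.45 to -0.04) and Polr1b 0.28 (95% interval 0.06 to 0.50).

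The genes called in the 2 particles were partly the same. Nop56, Rrs1, Mybbp1a, Nolc1, Ddx18 and Ddx21 were lower in both, which is 20.7% of the 29 in G1-1 and 66.7% of the 9 in Printex90. Bop1, Rrp1b and Polr1b passed in Printex90 and not in G1-1, but their differences between the particles, 0.17, 0.15 and 0.28, did not pass (edgeR adjusted p = 0.328, 0.474 and 0.0866). Mybbp1a and Rrs1 were called in both with differences of 0.06 and -0.13 that did not pass either.

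Against G3-1, 14 factors were lower in G1-1 (9.28% of all genes were called, 6.16% lower), led by Nolc1 at -0.74, Ddx27 at -0.67 and Ncl at -0.75. Against Bayertitan 19 were lower (12.3% called, 6.81% lower), led by Ncl at -0.86, Nolc1 at -0.78 and Ddx27 at -0.66. None was higher in either case. Between the other 3 pairs of particles no factor differed by edgeR: 0.644% of all genes were called for Printex90 against G3-1, 1.18% for Printex90 against Bayertitan and 0% for G3-1 against Bayertitan. At an unadjusted p under 0.05 there were 1, 3 and 0 factors, and 9.41%, 11.8% and 3.87% of all genes.

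**Figure D4:**
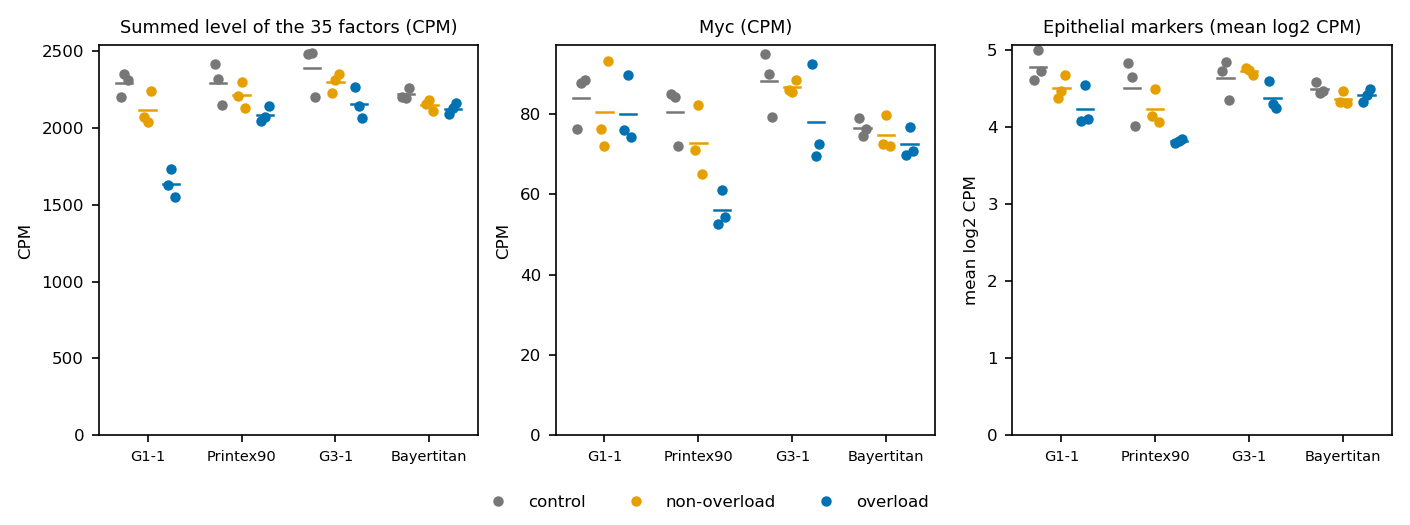
Summed level of the 35 factors in CPM, level of Myc in CPM, and mean log2 CPM of the epithelial markers (vertical axes from 0) in the 36 libraries, with 1 point a library, lines at group means, and colours for control, non-overload and overload. The summed level is lowest in G1-1 overload (1550 to 1730 CPM), Myc is lowest in Printex90 overload (52.6, 61.02 and 54.3 CPM), and the epithelial level is lowest in Printex90 overload.

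At the non-overload condition few factors were called. In G1-1, 1 of the 35 fell (0.459% of all genes were called, 0.0479% lower): Rrp12, which read 36.4, 35.4 and 40.8 CPM in control, 30.8, 29.9 and 31.3 CPM in non-overload and 32.9, 32.04 and 27.9 CPM in overload. Its log2 fold change was -0.29 (SE 0.065, edgeR adjusted p = 0.0317), close to its overload value of -0.28. No factor was called there when any 1 of the 6 libraries was left out. In Printex90, G3-1 and Bayertitan no factor was called at non-overload (0.205%, 0% and 0.335% of all genes), with 0, 4 and 5 factors at an unadjusted p under 0.05 (6.76%, 5.49% and 10.3% of all genes); DESeq2 called 1 in Bayertitan. The non-overload libraries lay below all controls in 14 factors in G1-1 (8.2% of all genes), 1 in Printex90 (5.26%), 4 in G3-1 (3.94%) and 10 in Bayertitan (8.63%). Averaged over the 4 particles, 4 factors were lower at non-overload (4.94% of all genes called, 1.64% lower): Rrp12 at -0.19, Ddx21 at -0.13, Nolc1 at -0.13 and Utp14a at -0.12.

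In G1-1, Printex90 and G3-1 the group means of most factors stepped down from control to non-overload to overload. This order held for 30 of 35 factors in G1-1, 28 in Printex90, 30 in G3-1 and 12 in Bayertitan, and for 24.6%, 28.7%, 21.0% and 16.7% of all genes. Many factors were correlated within groups, so these counts are not of independent genes. In G3-1 the median log2 fold change of the factors at non-overload was -0.06. It was 0.03 without the libraries high in Col3a1, where replicate 3 alone remained in G3-1 control. Both exposed groups of a particle were compared with the same control libraries. Averaged over the particles, 31 factors were lower in overload than in control (31.9% of all genes called, 17.5% lower) and 19 were lower in overload than in non-overload (15.5% called, 7.96% lower). Between these conditions Nolc1 had a mean log2 difference of -0.25, Ddx21 of -0.18 and Ncl of -0.24. The factors not called in the mean overload response were Ebna1bp2, Wdr75, Noc4l and Ddx56. In overload the median log2 fold change of the factors was -0.40 in G1-1, -0.13 in Printex90, -0.14 in G3-1 and -0.05 in Bayertitan. G1-1 therefore weighs most in the mean overload response. With the epithelial covariate the counts were 16 for overload against control and 12 for overload against non-overload. Over all genes the calls were 3072 and 2084 with the covariate, and 4660 and 2263 without it.

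Other genes of ribosome production, from lists of their own, were also lower in G1-1 overload. Of all genes, 28.1% were called there and 14.4% were lower, and no list was tested against these shares. Of 46 other processome and pre-40S factors 30 fell and 1 rose (median -0.28), and of 43 other 60S assembly factors 28 fell and 1 rose (median -0.26). Nol7, a processome protein, went from 31.9, 33.9 and 33.4 CPM to 17.1, 16.5 and 16.9 CPM without overlap (-0.97), and Bms1, the processome GTPase, had -0.62. Bysl and Tsr1 of the pre-40S particle had -0.39 and -0.39. In 60S assembly Rrp15 had -0.98, Brix1 -0.87, the methyltransferase Ftsj3 -0.80 and Mak16 -0.53; all of these were called. Of 12 other snoRNP proteins and assembly factors 3 fell and 0 rose: Znhit6 (-0.66) and Nufip1 (-0.33), which help build box C/D particles, and the ATPase Ruvbl1 (-0.48). Nhp2, a core box H/ACA protein, had -0.30 and was not called. Of 14 other genes of the polymerase I machinery 7 fell and 0 rose, including Cd3eap (-0.49), a polymerase I subunit, the initiation factor Ubtf (-0.33), the termination factor Ttf1 (-0.44) and Tcof1 (-0.49).

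Of 15 genes of the nuclear exosome and of rRNA trimming, 8 fell and 0 rose in G1-1 overload, with Mphosph6 at -0.72 and Exosc7 at -0.31. Exosc2 (-0.07) and Exosc4 (-0.14) were not called there. Of 73 cytosolic ribosomal protein genes tested, 45 fell and 1 rose (median -0.35), with Rpl19 at -0.99, Rpl21 at -0.98, Rpl7 at -0.64 and Rpl5 at -0.63; reads of their processed copies in the genome can be split or merged, so single values are uncertain. Their share of all counts was 2.03 to 2.21% in G1-1 control and 1.61 to 1.68% in G1-1 overload. In Printex90 overload 6 of 46 processome factors fell, and 4 of 43 factors of 60S assembly fell with 1 higher. Of the polymerase I machinery 2 of 14 fell, of the exosome 1 of 15, and none of the 12 snoRNP or 73 ribosomal protein genes. Of all genes, 14.8% were called there and 7.31% were lower. The counts of 60S assembly and of the exosome lie near the share lower. No gene of these lists was called in G3-1 or Bayertitan overload, where 0.568% and 0.329% of all genes were called.

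**Figure D5:**
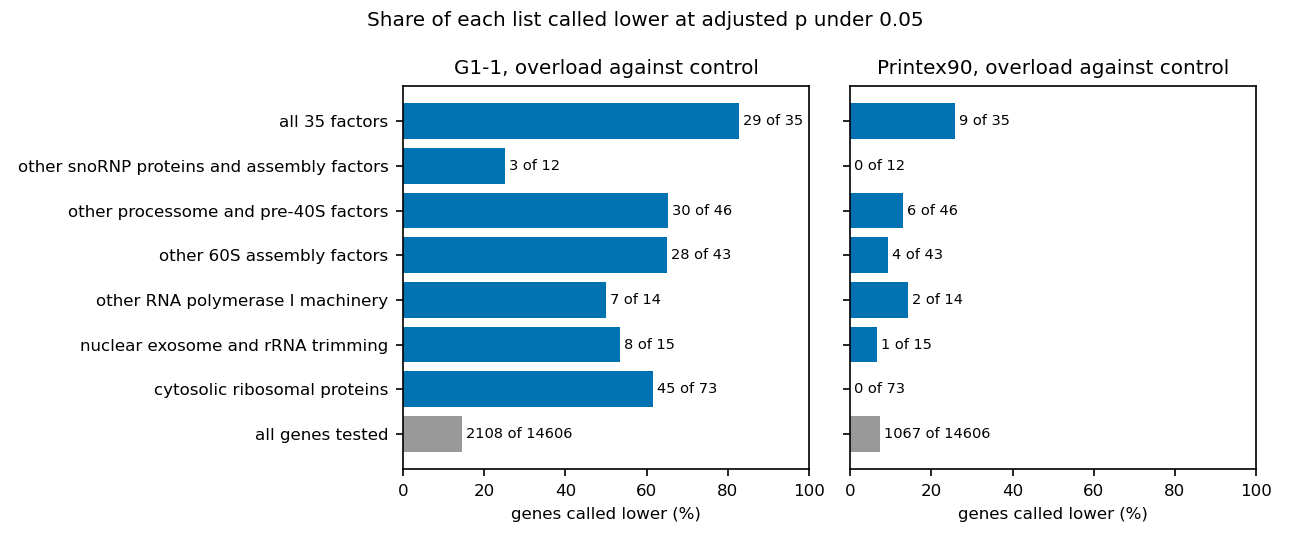
Share of each gene list called lower (horizontal axes, percent of genes tested) in G1-1 and Printex90 overload, with counts beside the bars and all genes tested in grey. In G1-1 the bars run from 3 of 12 snoRNP genes to 29 of the 35 factors, against 2108 of all 14606 genes; in Printex90 no bar exceeds that of the 35 factors, 9 of 35.

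Myc was called lower in Printex90 overload and not in G1-1 overload. Myc read 76.2, 87.7 and 88.4 CPM in G1-1 control and 76.1, 89.6 and 74.4 CPM in G1-1 overload, overlapping groups with a log2 fold change of -0.07 (SE 0.10, edgeR adjusted p = 0.667). In Printex90 it read 85.03, 84.3 and 71.9 CPM in control and 52.6, 61.02 and 54.3 CPM in overload, without overlap (-0.52, SE 0.11, edgeR adjusted p = 0.00113). The difference between the particles was 0.45 (edgeR adjusted p = 0.046). Neither it nor the values of Myc and its network within a particle were followed through the alternative settings. Mnt, a repressor that competes for E-boxes, rose in both: it read 70.5, 67.2 and 69.9 CPM in G1-1 control and 94.98, 91.04 and 104 CPM in overload (0.48, edgeR adjusted p = 1.46e-07), and its log2 fold change in Printex90 was 0.31 (edgeR adjusted p = 0.000368). Mxd1, a repressor of the same network, rose in G1-1 (0.42, edgeR adjusted p = 0.00372), where its overload libraries were at 53.6, 64.8 and 83.4 CPM, and Mxd4 fell (-0.36). Mlxip rose in G1-1 (0.18) and Mxi1 in Printex90 (0.22). Of the 12 genes of the network tested, 1 fell and 3 rose in G1-1, and 1 fell and 2 rose in Printex90. Of all genes, 28.1% and 14.8% were called in these comparisons. No result on the network as a whole is drawn from so few genes.

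Factors with and without an E-box in the promoter window were both lower. In G1-1 overload 11 of the 12 factors with an E-box fell (median -0.35 on the log2 scale), and 15 of the 19 tested factors without one fell (median -0.46). In Printex90 2 of 12 with and 5 of 19 without an E-box fell. Among the sequences shown, Ddx18 (-0.58 in G1-1), Gnl3 (-0.39), Pes1 (-0.40) and Dkc1 (-0.19) hold the motif before the start, and Nolc1 (-0.95) and Ncl (-0.90) do not. These matches describe the letters in the windows only.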

How the data were processed

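The authors deposited 1 table of expected counts per gene for the 36 libraries, of which 30.5% of the values had decimals. Salmon, FastQC, MultiQC and the build Rnor_6.0 are listed per the submitters' processing notes; the sources used here give no versions or settings. The libraries were made with a kit that removes ribosomal RNA, per the labels' protocols. The samples were grouped by particle and condition from the labels.

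The values were rounded to whole numbers. The tests used edgeR 4.0.16 (R 4.3.3) with scaling by the trimmed mean of M-values, filterByExpr (minimum count 10, minimum total 15), and the quasi-likelihood model over the 36 libraries, 1 coefficient for each group, leaving 24 residual degrees of freedom. A call is an adjusted p (Benjamini-Hochberg, over all 14606 genes) under 0.05. A mean response averages the 4 particles. Levels are CPM; SE is the standard error of a log2 fold change, and 95% intervals come from the same fit. Rows without a count in any library numbered 3287. Chi-square divided by its degrees of freedom was 3.71 to 35.4 in the 36 pairs of same-group libraries, so none was treated as a duplicate. Replicate numbers paired the libraries of Printex90 control and non-overload, by correlations of their deviations from the group means of 0.21, 0.43 and 0.43; that comparison had 0 factors called with and without the number as a block. The biological coefficient of variation common to all genes was 0.103. The sources used here do not say whether counting used strand, so overlapping and antisense genes are uncertain.

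The members and lists were chosen with earlier results of these data known. Values in every library are given for the members with the smallest p in the mean overload response within each role, for all 3 box C/D genes, Dkc1, Nolc1, 2 multifunctional, 3 processome and 4 60S factors and both polymerase I subunits, and for a few others chosen after their values were seen (Pes1, Bop1, Ebna1bp2, Nol7, Mnt and Mxd1). Rrp12, the 1 called in G1-1 non-overload, and Noc3l, with the smallest p in a difference, are given for that. From each list the 4 genes with the smallest p in the mean overload response among those called in it were named. On counts simulated for G1-1 overload against control over 14357 genes, 8, 70, 96 and 100% of genes changed by 1.25-, 1.5-, 2- and 4-fold were recovered, with 4 of 14157 others called. Alternatives were DESeq2 1.42.0, its size factors in edgeR, no filter, a replicate block, marker levels as covariates, leaving out libraries high in Col3a1, only the particles compared, and leaving out each replicate. Promoters are RefSeq's for GRCr8; since the counts used another build, genes were matched by symbol. Protein sequences were not used here.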

Additional observations from a re-analysis of the deposited data

Results flagged for a closer look

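The overload response of factors differed between G1-1 and each other particle by tests of the difference itself. Between G1-1 and Printex90, 14 factors differed by edgeR, with Noc3l at -0.47, Ncl at -0.81 and Nolc1 at -0.74 on the log2 scale, all lower in G1-1. Of all genes 11.1% were called there and 6.71% were lower. Between G1-1 and G3-1, 14 differed (9.28% of all genes called, 6.16% lower), with Nolc1 at -0.74, Ddx27 at -0.67 and Ncl at -0.75. Between G1-1 and Bayertitan, 19 differed (12.3% called, 6.81% lower), with Ncl at -0.86, Nolc1 at -0.78 and Ddx27 at -0.66. In the pairs of particles without G1-1, 0 factors were called. Myc differed the other way between G1-1 and Printex90, by 0.45, being lower in Printex90 overload.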

How the results depend on the processing

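The count of factors called in G1-1 overload was 24 to 29 under all alternatives, all lower. The call counts that moved by over 1.5 times were these. For Printex90 overload (9), 0 factors were called with the epithelial covariate and 4 in a fit of its own libraries. Over all genes, 1410 and 1373 were called in these fits, against 2155 in the main fit. For G3-1 overload (0) and Bayertitan non-overload (0), DESeq2 called 1 each. For G1-1 non-overload (1), DESeq2 called 2, the fibroblast covariate gave 3 and a fit of its own libraries 0. With the epithelial covariate the mean overload response (31) had 16 and overload against non-overload (19) had 12. For the mean non-overload response (4), DESeq2 called 7. Rrp1b turned from lower to 0.0040 in Printex90 overload and to 0.017 in the mean overload response with the epithelial covariate, neither called. The cause of these shifts was not tested.

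Leaving out 1 replicate at a time gave 24 to 28 called factors in G1-1 overload, 2 to 15 in Printex90, 0 to 1 in G3-1 and 0 in Bayertitan overload. Over all genes, the calls ran from 2931 to 4142 in G1-1 and from 997 to 2861 in Printex90 overload. For the factors, the other ranges were 0 in G1-1 non-overload, 30 to 32 in the mean overload response, 4 to 7 in the mean non-overload response and 14 to 22 in overload against non-overload. The differences of G1-1 from Printex90, G3-1 and Bayertitan had 11 to 17, 12 to 16 and 16 to 20. Wdr12 lost its call in the mean overload response without any 1 of 5 libraries.

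With the replicate number as a block, 29 factors were called in G1-1 overload and 9 in Printex90, where Rrp1b was lost, 31 in the mean overload response, and 15, 13 and 19 in the 3 differences of G1-1. The correlations of the deviations of same-numbered libraries were -0.20 to 0.11 in G1-1, -0.083 to 0.43 in Printex90, -0.25 to 0.54 in G3-1 and -0.041 to 0.086 in Bayertitan, over 9 pairs each. Outside Printex90 control and non-overload, no pair of groups had all 3 correlations over 0.1. G3-1 control and overload came close, with 0.22, 0.099 and 0.54. A library correlated best with its own number in 3 of 9 cases in G1-1, all between control and overload. The cases were 5, 4 and 7 of 9 in Printex90, G3-1 and Bayertitan. Whether same-numbered libraries share a source was not tested, and the labels do not say.

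All 35 factors passed the filter on low counts. Of the smallest changes simulated for G1-1 overload, 8% were recovered, and all 35 values in G3-1 and in Bayertitan overload were smaller than those. The simulation changed 50 genes at each fold and gave all genes 1 spread, while 4105 genes were called in the real G1-1 comparison. Its 8% is therefore not the power of the real tests, and the power in G3-1 and Bayertitan was not tested.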
